A study of Mus musculus with 9 samples.

Results

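The comparison is between the lungs of mice that were given copper oxide nanoparticles and drank TTM and the lungs of mice given the particles alone. It was made from the sample titles and covers 6 of 9 libraries, 3 in the group CuO_TTM and 3 in the group CuO. Every animal in the series was a C57BL/6J mouse, an inbred laboratory strain, and each library came from the lung of 1 mouse on day 7. CuO_TTM mice received a single instillation into the trachea of 100 µl of particles at 2 mg/mL and drank water with TTM at 0.02 mg/mL every day. CuO mice received the same instillation and no TTM. Control mice, 3 in number, received 100 µl of saline by the same route. They enter the pooled estimate of the spread and are given as the background level. In copper research the abbreviation TTM commonly stands for tetrathiomolybdate, an oral copper chelator, but the labels do not spell it out. None of the 9 libraries had TTM without particles, so an action of TTM on its own and an action on the response to the particles cannot be told apart. The labels give neither the age nor the sex of the mice.

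Copper is a cofactor of enzymes such as cytochrome c oxidase, superoxide dismutase and the lysyl oxidases, and free copper is held down by chaperones, by export pumps and by metallothioneins. Instilled metal oxide particles are taken up mainly by alveolar macrophages, and inflammation of the lung brings in neutrophils, monocytes and, later, lymphocytes. CD8 T cells recognise peptides on MHC class I through a receptor of rearranged alpha and beta chains and kill through granule proteins, while plasma cells secrete the antibodies that B cells carried on their surface.

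Values are TPM, a measure of transcript abundance per unit of length that fixes each library at the same total, so depth is unknown. Differences are CuO_TTM minus CuO on the scale of log2(TPM + 1), which understates changes of genes of low abundance, with standard errors (SE) from limma over 15487 tested genes. A gene was called when its limma p-value, adjusted by Benjamini and Hochberg over all of them, was under 0.05. In bulk lung RNA, fewer cells of a type and less RNA per cell cannot be told apart. The surfactant gene Sftpc, which defines alveolar type 2 cells, was abundant in all 9 libraries, at 17957, 46991 and 60051 TPM in CuO_TTM, 76791, 28381 and 55935 TPM in CuO and 45711, 54795 and 39066 TPM in control.

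Several libraries stood apart before any gene was compared. CuO replicate 1 correlated with the other libraries across genes at 0.864 to 0.901, and its median gene lay 0.53 below the mean of all libraries on the log2 scale. The club cell gene Scgb1a1 held 8.17%, 0.180% and 0.353% of all TPM in CuO_TTM replicates 1, 2 and 3, and 12.3%, 6.90% and 10.6% in CuO replicates 1, 2 and 3, against 17.3% to 22.5% in control. CuO_TTM replicate 1 differed from replicates 2 and 3 in fat, B cell and interferon genes, described below. The median difference of all tested genes was 0.19, and it was -0.03 without CuO replicate 1, -0.03 after quantile normalization and 0.10 after rescaling without Scgb1a1.

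Of the 15487 genes, 107 rose and 3 fell in CuO_TTM against CuO, 0.691% and 0.0194% of those tested, and 1200 had an unadjusted p under 0.05. The genes that rose were largely genes of T cells and of antibodies. They comprised 39 variable segments (30 of antibodies and 9 of T cell receptors), 8 constant genes of antibodies or T cell receptors, 4 predicted genes and 56 other genes. Of those 56, 26 belonged to the lists of T or natural killer cell genes. The lists were chosen with earlier results of these data known, so this count is a description only. Some called segments, Trav4-2 among them, passed the filter of 1 TPM in 3 libraries only through the CuO_TTM libraries. So did some other called genes, B4galnt4 among them. The direction of such genes was partly set by the filter. The smallest called difference was 1.32 in size and the largest was 4.74, for the antibody segment Igkv3-2, so no smaller shift passed the test at 3 mice a group. In all 110 the 3 CuO_TTM libraries lay wholly above or wholly below the 3 CuO libraries, which held for 11.8% of all tested genes. In 105 of the 107 that rose, every CuO_TTM library also lay above every control library. The share of all tested genes for which this held was not computed. The 107 were picked for high CuO_TTM values, so this count is a description only.

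The number of calls depended on which libraries entered the fit. With the 6 libraries of the comparison alone, limma called 0 genes, with 948 at an unadjusted p under 0.05 and a smallest adjusted p of 0.067. Without CuO_TTM replicate 2 it called 1 gene, the antibody segment Igkv17-127. It called 60 without CuO_TTM replicate 3, 56, 135 and 69 without CuO replicates 1, 2 and 3, and 52, 52 and 54 without control replicates 1, 2 and 3. Without CuO_TTM replicate 1 it called 83 higher and 65 lower. All 110 genes kept their direction in each of these fits. That was fixed in advance, because their CuO_TTM and CuO libraries did not overlap. Igkv17-127 was called in all 9 fits that leave out 1 library, and 26 genes were called in 8 of the 9, every one of them lost without CuO_TTM replicate 2. At the other end, 21 genes were called in 2 of the 9 fits, 23 in 1 and 2 in none. Among those 26 were Cd8a, Cd8b1, Cd3e, Cd3g, Cxcr3, Nkg7, Ctsw, Thy1, Igkc, Ighg1 and Mzb1. CuO replicate 1, the library that stood apart, was the lowest CuO library in 75 of the 107 genes that rose, and CuO replicate 2 was the highest in 65.

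**Figure D1:**
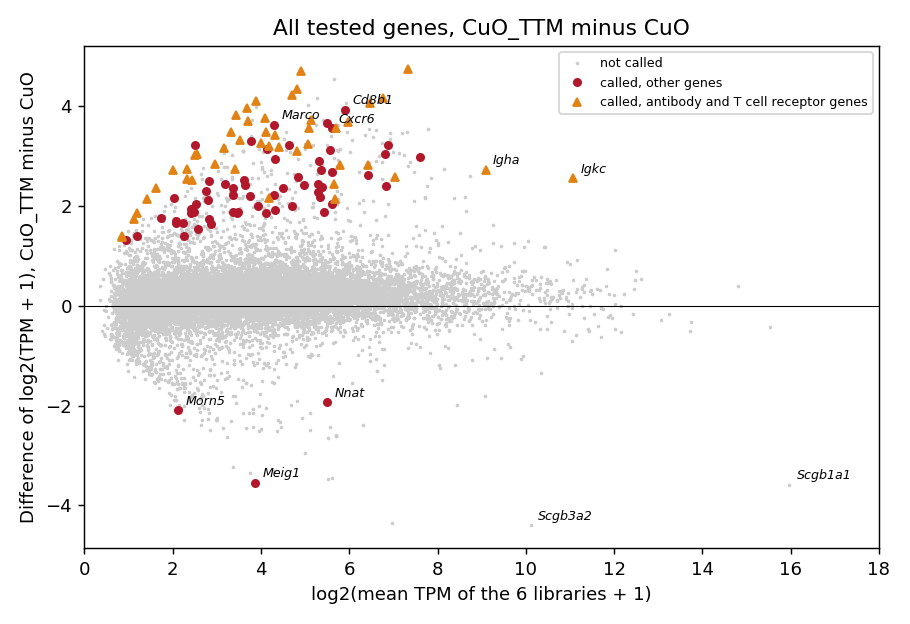
Difference of each of the 15487 tested genes, CuO_TTM minus CuO on the log2(TPM + 1) scale (vertical axis), against log2 of its mean TPM over the 6 libraries plus 1 (horizontal axis). Grey points were not called, and coloured points are the 107 genes that rose and the 3 that fell, with antibody and T cell receptor genes marked apart from other genes. The airway genes at the lower right, Scgb1a1 and Scgb3a2, were not called.

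T cell genes rose together. Of 20 T cell markers, all tested, 16 rose and none fell, where 0.691% of all tested genes rose. All 20 had groups that did not overlap, which held upward for 9.78% of all tested genes. Their median difference was 2.42, and their summed level was 1723, 1514 and 950.5 TPM in CuO_TTM, 205, 348 and 153 TPM in CuO, and 227, 280.5 and 307 TPM in control. The count of 16 became 7 without CuO_TTM replicate 1, 0 without CuO_TTM replicate 2, 11 without CuO_TTM replicate 3, 4, 18 and 3 without CuO replicates 1, 2 and 3, 4, 4 and 5 without control replicates 1, 2 and 3, and 0 with the 6 libraries alone. The median stayed between 2.21 and 2.75 in the fits without 1 library.

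The CD3 chains carry the signal of the T cell receptor into the cell. Cd3e (ENSMUSG00000032093) measured 81, 74.9 and 51.4 TPM in CuO_TTM, 5.71, 13.9 and 6.94 TPM in CuO and 10.8, 12.5 and 13.7 TPM in control. The lowest CuO_TTM library was above the highest CuO library, with a difference of 2.89 (SE 0.33, limma adjusted p = 0.0156). Cd3g (ENSMUSG00000002033) measured 176, 259 and 159 TPM in CuO_TTM, against 16.1, 45.97 and 15.96 TPM in CuO, a difference of 3.03 (SE 0.40, limma adjusted p = 0.0171). CuO replicate 2 held the most Cd3e and Cd3g of the CuO libraries, above every control library. Cd3d rose by 2.72, and the adhesion receptor genes Cd2 and Cd96 rose by 2.62 and 2.52. These 3 calls were kept in 2, 6 and 3 of the 9 fits without 1 library. Thy1, the gene of a surface glycoprotein of T cells that fibroblasts and lymphatic vessels also make, rose by 2.40. The costimulatory receptor genes Cd28 and Icos and the receptor constant gene Trbc2 were not called, with differences of 2.15, 2.73 and 2.10 (limma adjusted p = 0.119, 0.0882 and 0.13).

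Cd8b1 and Cd8a, which encode the paired chains of CD8, had the largest differences of the T cell genes named here other than receptor segments. Cd8b1 (ENSMUSG00000053044) measured 91.1, 145 and 93.9 TPM in CuO_TTM, 3.6, 14.2 and 4.21 TPM in CuO and 13.1, 14.6 and 14.8 TPM in control. Cd8a (ENSMUSG00000053977) measured 75.03, 105 and 66.1 TPM in CuO_TTM, 3.68, 12.3 and 3.37 TPM in CuO and 7.02, 9.16 and 11.03 TPM in control. For both genes all CuO_TTM libraries lay above all 6 other libraries, and CuO replicate 2 was the highest of the CuO libraries. The differences were 3.92 (95% interval 2.96 to 4.89) and 3.65 (2.70 to 4.60), each with a limma adjusted p of 0.0156.

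Cd4, the co-receptor gene of helper T cells, measured 46.8, 15.1 and 12.9 TPM in CuO_TTM, against 3.09, 9.9 and 6.67 TPM in CuO. The groups did not overlap, but the difference of 1.66 was not called (95% interval 0.47 to 2.85, limma adjusted p = 0.318). The ratio of Cd8a to Cd4 TPM was 1.60, 6.94 and 5.11 in CuO_TTM, 1.19, 1.24 and 0.505 in CuO, and 1.47, 1.70 and 1.10 in control. CuO_TTM replicates 2 and 3 were above every other library in this ratio, and replicate 1 was within the range of the controls. Foxp3, the factor of regulatory T cells, measured 6.27, 1.09 and 0.85 TPM in CuO_TTM, against 0.45, 2.26 and 0.95 TPM in CuO. The groups overlapped, and CuO_TTM replicate 1 was the highest of the 6 libraries. Of 12 tested genes of CD4 helper and regulatory T cells none was called (median difference 1.17). Of these, 11 were above 0, 6 had CuO_TTM wholly above CuO and 1 had it wholly below. Of all tested genes 72.6% were above 0, 9.78% lay wholly above and 2% wholly below. Cd4 can also be read from monocytes and macrophages.

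**Figure D2:**
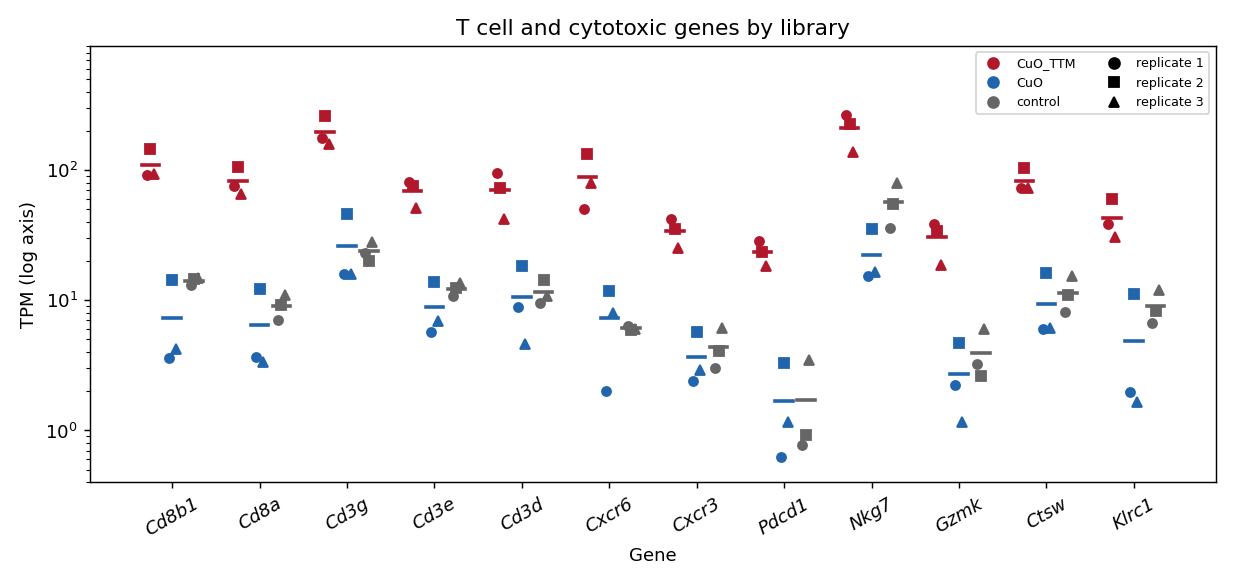
TPM of T cell genes in each library on a logarithmic axis, with CuO_TTM left of CuO and control. Each marker is 1 mouse, its shape gives the replicate number, and the short line is the group mean. Cd8a and Cd8b1 in CuO_TTM lie between 66.1 and 145 TPM, above the 3.37 to 14.2 TPM of CuO.

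Of 22 genes of CD8 and cytotoxic T cells, all tested, 8 rose and none fell (median difference 2.17). In 15 of them CuO_TTM lay wholly above CuO. Of all tested genes 0.691% rose and 9.78% lay wholly above. The count of 8 became 5 without CuO_TTM replicate 1, 0 without CuO_TTM replicate 2, 4 and 12 and 5 without CuO replicates 1, 2 and 3, and 5 without any single control library. With the 6 libraries alone the count was 0. The granule genes split. Nkg7, a granule membrane protein gene, measured 266, 228 and 137 TPM in CuO_TTM, 15.2, 35.6 and 16.5 TPM in CuO and 35.7, 54.8 and 80.03 TPM in control. It rose by 3.22 (SE 0.42, limma adjusted p = 0.0156), with the lowest CuO_TTM library above the highest control. Gzmk, a granzyme gene, measured 38.9, 33.9 and 18.8 TPM in CuO_TTM, against 2.25, 4.66 and 1.17 TPM in CuO and rose by 3.14, and the granule protease gene Ctsw rose by 3.12. Gzmb, the main killing granzyme, measured 564, 125 and 53.9 TPM in CuO_TTM, against 4.49, 65.99 and 17.2 TPM in CuO. Its groups overlapped, because CuO replicate 2 held more than CuO_TTM replicate 3, and it was not called (3.06, limma adjusted p = 0.416). The perforin gene Prf1 was not called either (2.44, limma adjusted p = 0.102).

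Klrc1 and Klrd1, the partner chains of an inhibitory receptor of cytotoxic and natural killer cells, rose by 3.22 and 2.37, calls kept in 1 of the 9 fits without 1 library. Tbx21, a master factor of type 1 responses, rose by 2.12, a call kept in 2 of the 9, and its target gene Ifng was not called (21.6, 11.9 and 6.96 TPM in CuO_TTM, against 0.71, 7.85 and 0.88 TPM in CuO). None of 12 tested natural killer cell genes was called (median difference 0.80). All 12 were above 0, as were 72.6% of all tested genes. In 4 of them CuO_TTM lay wholly above CuO, against 9.78% of all tested genes. Il2rb, of this list, measured 56.4, 35.5 and 27.3 TPM in CuO_TTM, against 1.57, 12.7 and 5.64 TPM in CuO (2.66, limma adjusted p = 0.0859). Klra8, a receptor largely confined to natural killer cells, measured 8.07, 3.85 and 1.47 TPM in CuO_TTM, 1.1, 1.86 and 0.98 TPM in CuO and 5.07, 4.84 and 10.8 TPM in control, with every control above CuO_TTM replicates 2 and 3.

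Chemokine and checkpoint receptors of T cells were also among the genes that rose. Cxcr6 (ENSMUSG00000048521), a receptor of T cells that stay in tissue, measured 50.1, 133 and 80.4 TPM in CuO_TTM, 2.02, 11.7 and 8.04 TPM in CuO and 6.39, 5.92 and 5.98 TPM in control. It rose by 3.55 (SE 0.52, limma adjusted p = 0.0213), and CuO_TTM replicate 2 was the highest library. Its ligand gene Cxcl16 measured 191, 145 and 119 TPM in CuO_TTM, against 61.5, 121 and 82.9 TPM in CuO, which overlapped. Cxcr3 (ENSMUSG00000050232), the receptor for interferon-induced chemokines, measured 42.03, 35.05 and 25.1 TPM in CuO_TTM, against 2.42, 5.7 and 2.89 TPM in CuO and rose by 2.94. Its ligand gene Cxcl9 measured 128, 45.8 and 31.6 TPM in CuO_TTM, against 8.61, 186 and 5.26 TPM in CuO, with CuO replicate 2 the highest of all 9 libraries. Itgae, the integrin chain that holds T cells in epithelium and that some dendritic cells carry, measured 4.66, 23.5 and 21.9 TPM in CuO_TTM, against 1.46, 3.79 and 5.27 TPM in CuO. CuO_TTM replicate 1 lay within the CuO range.

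Pdcd1 (ENSMUSG00000026285), the gene of the checkpoint receptor PD-1, measured 28.5, 23.7 and 18.5 TPM in CuO_TTM, 0.63, 3.29 and 1.17 TPM in CuO and 0.77, 0.92 and 3.48 TPM in control. It rose by 3.29 (SE 0.45, limma adjusted p = 0.0173). Per Cd3e it stood at 0.352, 0.316 and 0.360 in CuO_TTM and at 0.110, 0.237 and 0.169 in CuO, without overlap, and at 0.0712, 0.0737 and 0.255 in control. Of the other ratios to Cd3e that were computed, that of Cd8a also lay wholly above CuO in CuO_TTM. Those of Cxcr6 and Cd4 overlapped, and those of Foxp3 and Mki67 lay wholly below. Of 16 genes of inhibitory receptors and exhaustion, Pdcd1 alone was called, where 0.691% of all tested genes rose. Tigit measured 45.5, 22.9 and 22.7 TPM in CuO_TTM, against 0.64, 6.24 and 2.65 TPM in CuO (3.08, limma adjusted p = 0.0859). Havcr2, the gene of the receptor TIM-3, measured 21.3, 24.7 and 18.7 TPM in CuO_TTM, against 2.17, 17.7 and 12.4 TPM in CuO, and all 3 CuO_TTM libraries lay above the highest CuO library without a call. Lag3 and Ctla4 were highest in CuO_TTM replicate 1, at 35.9, 9.29 and 5 TPM and 38.9, 10.8 and 7.19 TPM in CuO_TTM replicates 1, 2 and 3.

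Of 25 genes of T cell receptor signalling, 11 rose and none fell (median difference 2.09), where 0.691% of all tested genes rose. The count became 5 and 0 without CuO_TTM replicates 1 and 2, 4 without CuO replicate 1 or 3, 4 without any single control library, and 16 with CuO replicate 2 left out. With the 6 libraries alone the count was 0. The list shares genes with the lists above, among them those of CD3 and CD8. Lck, the kinase bound to CD8 and CD4 that starts the signal, measured 107, 83.9 and 54.9 TPM in CuO_TTM, 5.47, 25.7 and 10.1 TPM in CuO and 16.5, 21.2 and 18.9 TPM in control and rose by 2.69, a call kept in 1 of the 9 fits without 1 library. Fyn, a related kinase of wider expression, had a difference of 0.80 and was not called (limma adjusted p = 0.318). Themis, a signalling protein first known from thymocytes, rose by 2.49, a call kept in 2 of the 9. The gene Rag1, which cuts receptor genes in developing lymphocytes, was at 0.02, 0 and 0 TPM in CuO_TTM and at 0 TPM in CuO. Foxn1, the master factor of thymic epithelium, was at 0 TPM in all 9 libraries. Madcam1 and Glycam1, genes of lymph node vessels, were at 0.31 TPM or less in each of them. The summed level of the lymph node list was 438, 355 and 300.5 TPM in CuO_TTM, against 808, 732 and 359 TPM in CuO. The single gene Ccl21a held 775 of the 808 TPM in CuO replicate 1. Of the 8 tested genes of this list, 7 were above 0, as were 72.6% of all tested genes. Of these 8, 1 was called higher, where 0.691% of all tested genes rose, and the median difference was 0.48.

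The promoters of 3 of these genes, which code for both chemokine receptors above and for the kinase Lck, are shown because their genes rose together and their letters hold core motifs of lymphocyte transcription factors. They come from RefSeq on the build GRCm38.p6 and run from 250 bases before to 50 bases after the gene's start, read 5′ to 3′ on the gene's strand. Capitals mark TGTGGT, the core of RUNX factors, and GGAAGT, a core of ETS factors, searched on both strands, so that ACCACA and ACTTCC mark the same motifs on the other strand. Cxcr6 lies at chr9:123806227-123806526 on the plus strand, Cxcr3 at chrX:101734098-101734397 on the minus strand, and Lck, with 1 of its 2 promoters, at chr4:129573592-129573891 on the minus strand.
Cxcr6: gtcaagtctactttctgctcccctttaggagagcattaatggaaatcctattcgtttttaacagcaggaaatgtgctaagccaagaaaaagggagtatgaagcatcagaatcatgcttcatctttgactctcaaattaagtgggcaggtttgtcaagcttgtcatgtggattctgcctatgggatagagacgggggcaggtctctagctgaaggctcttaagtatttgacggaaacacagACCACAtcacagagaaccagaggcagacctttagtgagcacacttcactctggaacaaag
Cxcr3: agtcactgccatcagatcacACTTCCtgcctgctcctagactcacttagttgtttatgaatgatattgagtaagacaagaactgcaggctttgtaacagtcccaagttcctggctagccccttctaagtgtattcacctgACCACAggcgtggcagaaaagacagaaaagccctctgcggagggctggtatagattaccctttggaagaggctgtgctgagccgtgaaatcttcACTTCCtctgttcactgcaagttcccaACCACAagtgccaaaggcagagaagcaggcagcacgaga
Lck: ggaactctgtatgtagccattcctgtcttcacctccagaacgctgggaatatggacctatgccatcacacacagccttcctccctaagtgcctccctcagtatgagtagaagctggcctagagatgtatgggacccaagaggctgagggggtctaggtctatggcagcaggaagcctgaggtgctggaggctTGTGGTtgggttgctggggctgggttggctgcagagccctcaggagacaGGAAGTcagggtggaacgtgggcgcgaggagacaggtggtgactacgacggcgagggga
Among the 56 genes that rose outside segments, constant genes and predicted genes, 39 matched the table, with 48 promoters. TGTGGT stood in 29.2% of them and in 16.8% of all 32851 promoters, and GGAAGT in 31.2% and 23.8%. GTTGCC, part of the motif of RFX factors, stood in 8.33% of them and in 12.5% of all. The promoters shown were picked for holding the letters, and a match is a description of the sequence and not a binding site.

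Genes outside the lists that rose were in part lymphocyte genes too. The 25 such genes were chosen for mention after their values were seen, except Gimap3, a GTPase gene of lymphocyte survival, which rose by 2.44. Spn, the gene of the leukocyte sialoglycoprotein CD43, measured 80.3, 65.3 and 48.1 TPM in CuO_TTM, against 9.21, 17.7 and 13.99 TPM in CuO. Hcst, the gene of the signalling adaptor DAP10, measured 68.5, 75.3 and 58.3 TPM in CuO_TTM, against 8.3, 18.7 and 11.2 TPM in CuO. Ptprcap, whose protein binds the phosphatase CD45, measured 95.4, 62.5 and 35.8 TPM in CuO_TTM, against 9.7, 17.5 and 8.9 TPM in CuO. The adaptor genes Sit1, Lime1 and Lax1 rose by 1.87, 2.35 and 1.86. The receptor gene Il27ra rose by 1.63. The calls of Ptprcap and Il27ra were kept in 2 of the 9 fits without 1 library, those of Gimap3 and Lax1 in 3, that of Lime1 in 4 and that of Tesc in none. The others ranged from 1.40 for Tesc to 2.43 for Apol7e, and no control library reached the lowest CuO_TTM library in Fam189b, which measured 34.5, 29.01 and 28.2 TPM in CuO_TTM, 6.34, 9.14 and 6.79 TPM in CuO and 7.08, 9.81 and 7.15 TPM in control.

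Variable segments of the T cell receptor, each shared by many receptors, were counted and summed in each library, and libraries with a higher sum mostly held more of them. Alpha chain V segments at 1 TPM or more numbered 72, 42 and 35 in CuO_TTM, 0, 31 and 9 in CuO, and 13, 18 and 14 in control. Their summed level was 375, 321 and 228 TPM in CuO_TTM, 5.02, 92.3 and 28.5 TPM in CuO, and 49.2, 60.8 and 43.4 TPM in control. The highest single segment was Trav6n-6 in CuO_TTM replicate 1, with 11.5% of the alpha V sum, and Trav16n in replicates 2 and 3, with 35.0% and 19.2%. Trav16n measured 16.5, 112 and 43.8 TPM in CuO_TTM, against 0, 1.66 and 0.94 TPM in CuO and rose by 4.69. Beta chain V segments summed to 477, 306 and 235 TPM in CuO_TTM and to 8.59, 124 and 38.9 TPM in CuO, and Trbv26 led in CuO_TTM replicates 2 and 3 with 21.3% and 13.2%. Of 38 tested alpha and 21 tested beta V segments, 5 and 4 rose, where 0.691% of all tested genes rose. Of those tested, 27 and 3 passed the filter, 1 TPM in 3 libraries, only with the CuO_TTM libraries counted. Their direction was thus partly set by the filter, and these counts are a description only. Segments resemble each other, Trav16 and Trav16n among them, and reads can be shared between copies, so single segments are uncertain. The constant genes Trac and Trbc1 rose by 2.82 and 2.44, calls kept in 3 and 2 of the 9 fits without 1 library. Of the gamma chain constant genes, Tcrg-C1 measured 2.68, 0.64 and 1.38 TPM in CuO_TTM, against 2.47, 2.61 and 2.34 TPM in CuO (-0.51, limma adjusted p = 0.822). Tcrg-C2 measured 7.66, 26.8 and 12.3 TPM in CuO_TTM, against 1.87, 3.64 and 1.49 TPM in CuO and was not called (2.20, limma adjusted p = 0.0564).

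Antibody genes formed the other large group that rose. Antibody genes together held 1.78%, 1.81% and 1.62% of all TPM in CuO_TTM, 0.119%, 0.277% and 0.525% in CuO, and 0.199%, 0.197% and 0.145% in control. The lowest CuO_TTM library was thus above the highest of the other 6. Of the tested V segments, 13 of 83 heavy chain, 16 of 88 kappa and 1 of 3 lambda segments rose and none fell. Of all tested genes 0.691% rose. Of those tested, 24, 19 and 1 passed the filter, 1 TPM in 3 libraries, only with the CuO_TTM libraries counted, so their direction was partly set by the filter. The table holds 185, 160 and 3 such segments in all. The kappa constant gene Igkc (ENSMUSG00000076609) measured 4522, 3988 and 2472 TPM in CuO_TTM, 638, 408 and 842 TPM in CuO and 364, 327 and 343 TPM in control, a difference of 2.55 (95% interval 1.83 to 3.28, limma adjusted p = 0.0156). Of the segments, Igkv17-127 measured 144, 51.2 and 151 TPM in CuO_TTM, against 4.2, 7.81 and 10.9 TPM in CuO.

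The heavy chain constant genes name the antibody class. Igha, the gene of IgA, the main antibody of mucosal surfaces, measured 692, 1117 and 988 TPM in CuO_TTM, 78.05, 124 and 270.01 TPM in CuO and 63.1, 53.3 and 121 TPM in control and rose by 2.72 (SE 0.47, limma adjusted p = 0.0368), a call kept in 2 of the 9 fits without 1 library. Ighg1 (ENSMUSG00000076614), an IgG gene, measured 23.8, 79.9 and 46.5 TPM in CuO_TTM, 4.6, 2.98 and 5.83 TPM in CuO and 1.96, 1.21 and 1.36 TPM in control and rose by 3.10 (SE 0.41, limma adjusted p = 0.0171). The IgG genes Ighg2b and Ighg3 rose by 2.57 and 2.16, and Ighg2c was not called (302, 549.7 and 297 TPM in CuO_TTM, against 37.2, 44.4 and 142 TPM in CuO). Ighm, the gene of IgM, the first class a B cell makes, was uneven. It measured 1001, 82.1 and 62.8 TPM in CuO_TTM, 30.7, 42.6 and 39.8 TPM in CuO and 96.7, 80.98 and 42.4 TPM in control and was not called (2.19, limma adjusted p = 0.536). Ighm held 43.2%, 3.85% and 3.89% of the summed heavy chain constant TPM in CuO_TTM, 15.5%, 16.9% and 7.62% in CuO, and 43.6%, 35.7% and 21.4% in control. Igha held 29.9%, 52.3% and 61.1% of that sum in CuO_TTM, 39.4%, 49.4% and 51.7% in CuO, and 28.5%, 23.5% and 61.2% in control, so the groups overlapped. Ighd, the gene of IgD, held 1.91%, 0.704% and 0.799% in CuO_TTM, 4.91%, 2.28% and 0.941% in CuO, and 11.5%, 8.25% and 4.79% in control. CuO_TTM replicate 1 was within the control range in the share of Ighm and Igha and below every control in that of Ighd.

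**Figure D3:**
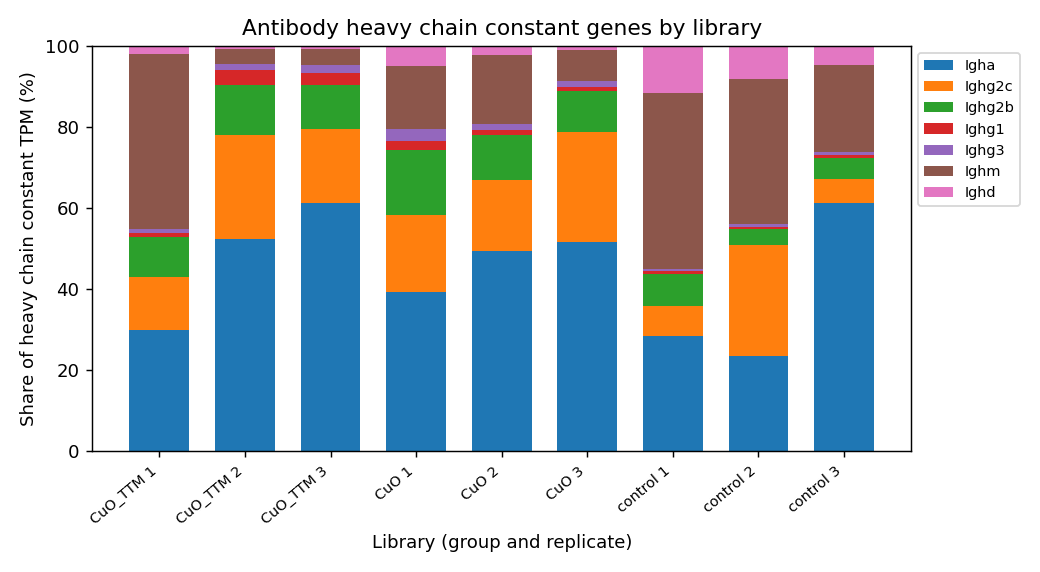
Share of the summed heavy chain constant gene TPM held by each antibody class gene in each library (stacked bars from 0 to 100%), with CuO_TTM left of CuO and control. Ighe, at most 0.0404% in any library, is not drawn. Ighm holds 43.2% in CuO_TTM replicate 1 and 3.85% and 3.89% in replicates 2 and 3.

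Genes of the cells that secrete antibodies moved less evenly than the antibodies. Jchain, the gene of the chain that joins IgA and IgM, measured 284, 401 and 315 TPM in CuO_TTM, 15.2, 52.96 and 83.9 TPM in CuO and 26.97, 27.8 and 35.5 TPM in control and rose by 2.98 (SE 0.51, limma adjusted p = 0.0369). Mzb1, a chaperone gene of antibody assembly, measured 70.9, 42.2 and 31.4 TPM in CuO_TTM, against 5.72, 7.12 and 7.61 TPM in CuO and rose by 2.58. These were the 2 of 14 plasma cell genes that were called, where 0.691% of all tested genes rose. The call of Jchain was lost in 7 of the 9 fits without 1 library. The median difference of the list was 0.94, and 0.28 without CuO replicate 1. Xbp1, the factor of the secretory cell that epithelium also makes, measured 168, 161 and 188 TPM in CuO_TTM, against 47.7, 167 and 172 TPM in CuO, and only CuO replicate 1 was far from the others. None of 16 genes of the secretory pathway was called (median difference 0.23).

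None of 14 B cell genes was called (median difference 1.34), and 8 had CuO_TTM wholly above CuO, against 9.78% of all tested genes. Cd79a, a signalling chain of the B cell receptor, measured 82.6, 17.98 and 13.9 TPM in CuO_TTM, 7.95, 8.75 and 6.65 TPM in CuO and 30.1, 27.1 and 10.8 TPM in control. CuO_TTM replicate 1 was the highest of the 9 libraries, and replicates 2 and 3 lay above CuO and below control replicates 1 and 2. The list median was 0.83 without CuO_TTM replicate 1 and 2.52 without CuO_TTM replicates 2 and 3 together. Ltb, a cytokine of lymphoid tissue that T and B cells make, rose by 1.88 (limma adjusted p = 0.0455), to 89.3, 64.7 and 45.5 TPM in CuO_TTM, against 14.7, 24.9 and 12.7 TPM in CuO, and the call was kept in 1 of the 9 fits without 1 library. The lymph node chemokine gene Ccl21a went the other way without a call, at 121, 254 and 225 TPM in CuO_TTM, against 775, 328 and 323 TPM in CuO.

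Genes of MHC class II presentation, through which macrophages, dendritic cells and B cells show peptides to CD4 T cells, were higher without a single call. All 11 were above 0, as were 72.6% of all tested genes, and 10 had CuO_TTM wholly above CuO, as did 9.78% of all. The median difference was 1.17, or 0.92 and 0.94 after quantile and median-ratio scaling. H2-Aa measured 1922, 1935 and 1709 TPM in CuO_TTM, 882, 553 and 1139.6 TPM in CuO and 615, 841 and 1143 TPM in control (1.17, limma adjusted p = 0.217). H2-Ab1 measured 1356, 1209 and 989.7 TPM in CuO_TTM, against 512, 323 and 716 TPM in CuO (1.26, limma adjusted p = 0.189). For both genes CuO replicate 2 was the lowest library of the 6 and CuO replicate 3 lay closest to CuO_TTM. Of 15 genes of MHC class I presentation none was called (median difference 0.66). H2-K1 measured 7461, 4936 and 4039 TPM in CuO_TTM, against 1148, 4168 and 3057 TPM in CuO, where replicate 2 lay above CuO_TTM replicate 3.

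Among macrophage genes Marco alone was called. Marco (ENSMUSG00000026390), a scavenger receptor of alveolar macrophages that binds inhaled particles, measured 11.6, 37.9 and 56.96 TPM in CuO_TTM, 0.68, 0.67 and 4.37 TPM in CuO and 5.31, 11.4 and 4.21 TPM in control. It rose by 3.63 (SE 0.65, limma adjusted p = 0.0425), with CuO_TTM replicate 1 close to the highest control, and the call was kept in 2 of the 9 fits without 1 library. The other 16 tested alveolar macrophage genes were not called, where 0.691% of all tested genes rose. Ear1, a ribonuclease gene with near-identical relatives, measured 5.13, 10.8 and 21.3 TPM in CuO_TTM, 0.23, 2.12 and 3.2 TPM in CuO and 24.9, 124 and 48.05 TPM in control. All CuO_TTM libraries lay above all CuO libraries and below all controls (2.22, limma adjusted p = 0.292). Across all tested genes 11.8% had groups that did not overlap. Of 15 genes of lipid-laden macrophages none did, and none was called (median difference 0.09). Trem2, a lipid receptor of such cells, measured 32.4, 142 and 97.6 TPM in CuO_TTM, 55.7, 77.2 and 120.1 TPM in CuO and 2.92, 7.76 and 8.97 TPM in control. Both particle groups were far above control in Trem2 and overlapped each other.

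Neutrophil genes leaned lower without a call. Of 14, 11 were below 0 (median difference -0.49), and 4 had CuO_TTM wholly below CuO, which held downward for 2% of all tested genes. S100a8, an alarm protein of neutrophils, measured 138, 130.1 and 190.3 TPM in CuO_TTM, 412, 501 and 228 TPM in CuO and 309, 848 and 1792 TPM in control (-1.26, limma adjusted p = 0.655). The chemokine receptor gene Cxcr2 measured 4.94, 2.82 and 4.6 TPM in CuO_TTM, 6.66, 18.3 and 12.8 TPM in CuO and 7.21, 21.3 and 30.9 TPM in control (-1.34, limma adjusted p = 0.498).

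**Figure D4:**
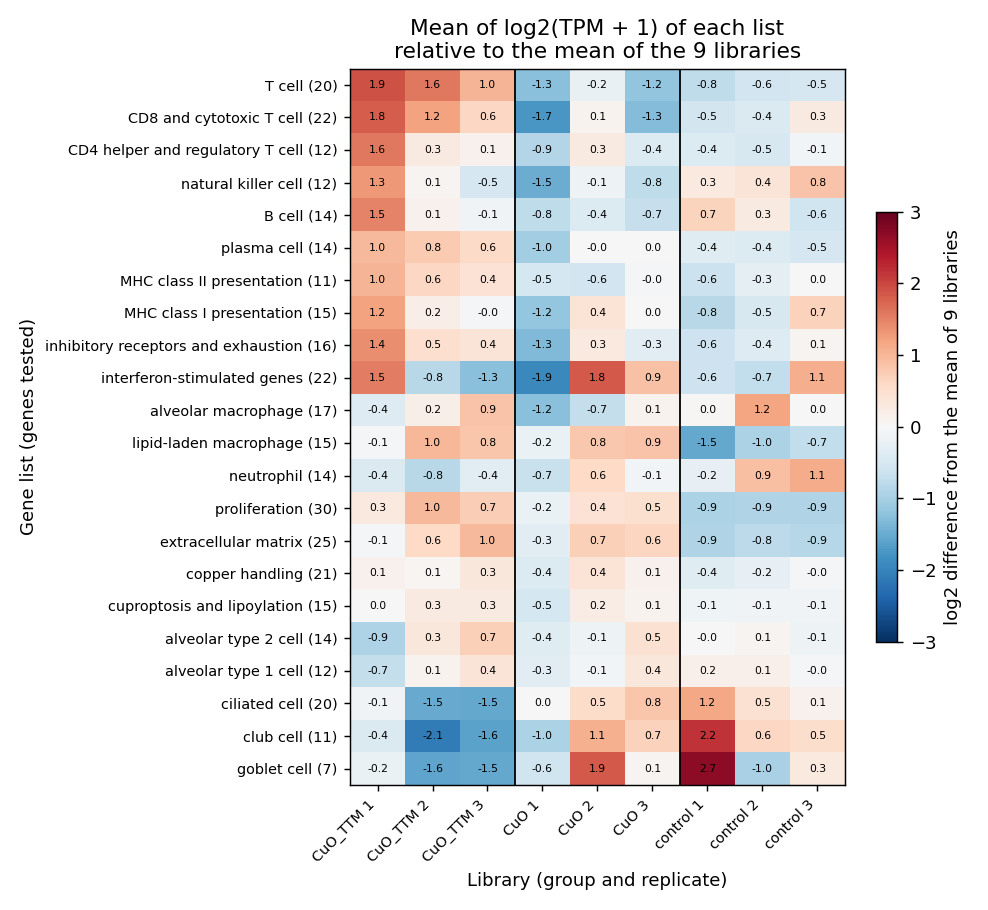
Mean of each gene list in each library, as log2(TPM + 1) relative to the gene's mean over the 9 libraries, from -3 (blue) to 3 (red), with CuO_TTM left of CuO and control. T cell genes stand at 1.91, 1.59 and 1.01 in CuO_TTM and at -1.25, -0.22 and -1.19 in CuO.

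The 3 genes that fell were Meig1, Morn5 and Nnat. Meig1 (ENSMUSG00000026650), a gene known from sperm and from ciliated cells, measured 5.89, 0.55 and 0 TPM in CuO_TTM, 31.5, 22.7 and 20.9 TPM in CuO and 28.04, 12.2 and 14.5 TPM in control (-3.54, SE 0.64, limma adjusted p = 0.0439). Morn5 (ENSMUSG00000026894) measured 1.5, 0.41 and 0.17 TPM in CuO_TTM, 5.31, 4.56 and 8.14 TPM in CuO and 5.69, 2.65 and 3.02 TPM in control (-2.09, limma adjusted p = 0.0389). In both, CuO_TTM replicate 1 held more than replicates 2 and 3, which were close to 0. Nnat (ENSMUSG00000067786), an imprinted gene of a small membrane protein first known from developing brain, had another pattern. It measured 12.04, 18.9 and 21.6 TPM in CuO_TTM, 95.99, 43.8 and 72.9 TPM in CuO and 11.2, 13.5 and 8.51 TPM in control, with replicate 1 the lowest of the CuO_TTM libraries (-1.93, SE 0.34, limma adjusted p = 0.0429). CuO_TTM was near control in Nnat, and CuO was above both without a call against control (limma adjusted p = 0.124). Each of the 3 calls was kept in 1 of the 9 fits without 1 library, Meig1 and Morn5 without CuO_TTM replicate 1 and Nnat without CuO replicate 2.

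Of 13 tested imprinted growth genes Nnat alone was called, where 0.0194% of all tested genes fell. H19, an imprinted RNA of growing tissue, measured 0.38, 3.16 and 3.76 TPM in CuO_TTM, 7.39, 7.5 and 9.06 TPM in CuO and 1.84, 1.2 and 0.65 TPM in control, again with CuO above the other groups (-1.57, limma adjusted p = 0.238). Igfbp2, a binding protein for insulin-like growth factors that mature alveolar type 1 cells make, measured 158, 138 and 150.4 TPM in CuO_TTM, 584, 201 and 337 TPM in CuO and 154, 171 and 142 TPM in control (-1.19, limma adjusted p = 0.245).

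Airway epithelial genes were low in CuO_TTM replicates 2 and 3. Of 20 ciliated cell genes, 2 fell, 19 were below 0 and 8 had CuO_TTM wholly below CuO (median difference -1.67). Of all tested genes 0.0194% fell, 27.4% were below 0 and 2% lay wholly below. Foxj1, the master factor of motile cilia, measured 18.7, 1.07 and 0.87 TPM in CuO_TTM, 16.5, 26.4 and 26.2 TPM in CuO and 28.1, 18.6 and 19.7 TPM in control. CuO_TTM replicate 1 was within the CuO range, and the gene was not called (-2.47, limma adjusted p = 0.301). Without CuO_TTM replicate 1, 7 ciliated cell genes and 3 of 11 club cell genes were called lower, as were 65 of all 15487 tested genes. Without CuO_TTM replicates 2 and 3 together the ciliated median was -0.50. The club cell gene Scgb3a2 measured 549, 25.3 and 50.3 TPM in CuO_TTM, 1489.9, 2940.2 and 1588 TPM in CuO and 3556, 1269.9 and 732 TPM in control (-4.40, limma adjusted p = 0.123). Pigr, the transporter that carries IgA across epithelium, measured 44.5, 3.52 and 2.34 TPM in CuO_TTM, against 29.5, 45.6 and 51.98 TPM in CuO, and CuO_TTM replicates 2 and 3 were the lowest of the 6. The part of these airway genes in the other results was not tested.

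**Figure D5:**
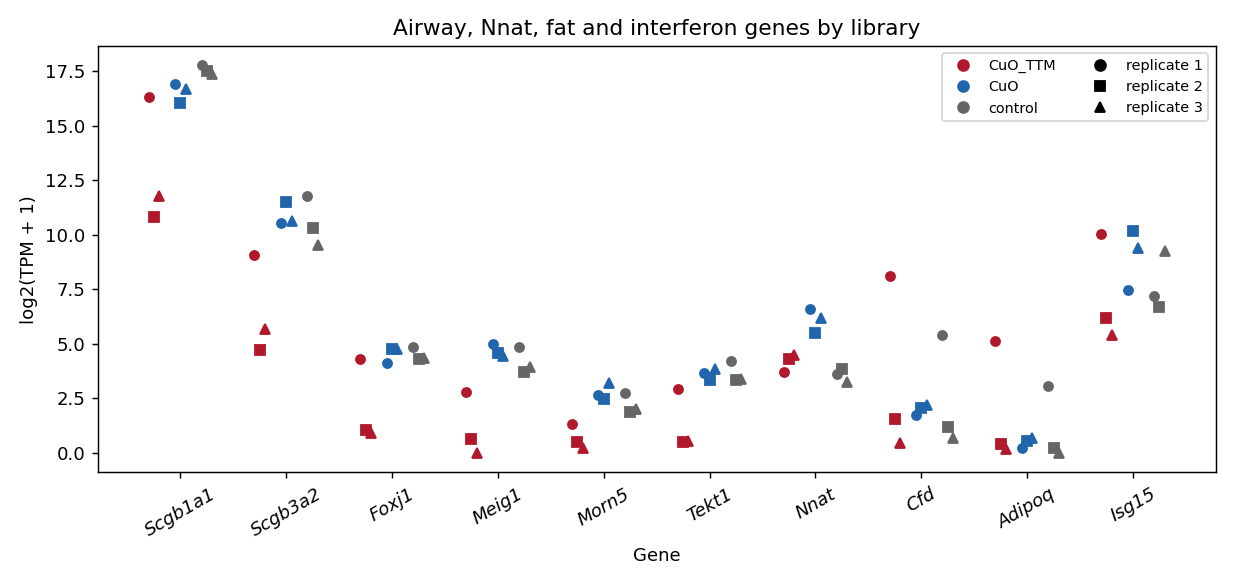
log2(TPM + 1) of airway, fat and interferon genes and of Nnat in each library, with CuO_TTM left of CuO and control. Each marker is 1 mouse, and its shape gives the replicate number. Cfd and Adipoq reach 273 and 33.9 TPM in CuO_TTM replicate 1 and hold 1.93 and 0.35 TPM in replicate 2 and 0.38 and 0.14 TPM in replicate 3.

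CuO_TTM replicate 1 also differed from its group in other genes. The fat genes Cfd and Car3 measured 273, 1.93 and 0.38 TPM and 73.3, 1.24 and 0.05 TPM in CuO_TTM replicates 1, 2 and 3, against 2.37, 3.21 and 3.64 TPM and 1.06, 1.92 and 2.07 TPM in CuO, and control replicate 1 held 41.9 and 24.0 TPM. The 8 genes of the fat list summed to 409, 4.35 and 0.85 TPM in CuO_TTM, 4, 8.08 and 7.81 TPM in CuO and 84.1, 2.6 and 1.82 TPM in control. The atrial gene Nppa measured 30.3, 0.5 and 0 TPM in CuO_TTM, 0.14, 1.44 and 0 TPM in CuO and 20.3, 0.19 and 0.09 TPM in control. Of 22 interferon-stimulated genes none was called, 15 were below 0 and the median difference was -0.60. It was -1.83 without CuO replicate 1, 0.42 without CuO replicate 2, -1.59 without CuO_TTM replicate 1 and 1.31 without CuO_TTM replicates 2 and 3 together. Isg15, an interferon-induced ubiquitin-like protein, measured 1065, 72.4 and 41.9 TPM in CuO_TTM, 179.6, 1174 and 679 TPM in CuO and 146, 103 and 611 TPM in control. CuO_TTM replicate 1 and CuO replicate 2 were the 2 highest libraries. The part of these genes in the other results was not tested.

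Copper genes did not pass the test. Of 21 copper handling genes none was called, 1 had groups that did not overlap, and the median difference was 0.17, near the 0.19 of all genes. Of all tested genes 0.71% were called and 11.8% had groups that did not overlap. The metallothionein genes Mt1 and Mt2, whose proteins bind copper and zinc, overlapped between the groups. Mt1 measured 239, 122 and 244 TPM in CuO_TTM, 281, 261 and 142 TPM in CuO and 74.7, 80.2 and 256 TPM in control (-0.18, 95% interval -1.32 to 0.96). Mt2 measured 296, 84.96 and 328 TPM in CuO_TTM, 150.2, 437 and 74.6 TPM in CuO and 51.96, 51.4 and 375 TPM in control (0.25, -1.77 to 2.26). Control replicate 3 lay within the range of the particle groups in both. Mtf1, the metal-sensing factor of the metallothionein genes, measured 11.3, 7.86 and 11.6 TPM in CuO_TTM, against 3.46, 8.24 and 7.72 TPM in CuO (0.65, -0.08 to 1.37, limma adjusted p = 0.729). Slc25a3, the mitochondrial phosphate carrier that also brings copper into the mitochondrion, was the gene without overlap, at 322, 318 and 296 TPM in CuO_TTM, against 273, 245 and 260 TPM in CuO (0.27, -0.18 to 0.72).

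The exporter gene Atp7a measured 6.72, 9.88 and 12.5 TPM in CuO_TTM, against 0.33, 12.99 and 15.01 TPM in CuO, where replicate 1 was near 0 (-1.27 to 2.55 for a difference of 0.64). The superoxide dismutase chaperone gene Ccs measured 39.2, 34.4 and 35.03 TPM in CuO_TTM, against 39.9, 30.3 and 35.01 TPM in CuO, a difference of 0.05 with an interval of -0.41 to 0.51, which does not reach the smallest called difference. None of 12 tested copper-dependent enzyme genes and none of 15 genes of cuproptosis and lipoylation was called (median differences 0.19 and 0.26). Hmox1, the haem oxygenase gene of the oxidant response, measured 105, 147 and 89.6 TPM in CuO_TTM, 48.1, 94.2 and 52.5 TPM in CuO and 27.6, 34.6 and 45.7 TPM in control. CuO replicate 2 lay above CuO_TTM replicate 3, and the difference of 0.84 was not called (95% interval 0.10 to 1.57, limma adjusted p = 0.517).

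Matrix genes did not separate the particle groups. None of 25 extracellular matrix genes was called or had groups that did not overlap (median difference 0.12). Of all tested genes 0.71% were called and 11.8% had groups that did not overlap. Col1a1, a chain of type I collagen, measured 183, 307 and 300.1 TPM in CuO_TTM, 223, 339.8 and 282 TPM in CuO and 64.1, 58.6 and 53.1 TPM in control. The difference between the particle groups was -0.11 (95% interval -0.72 to 0.49), and all 6 of their libraries were above control. Of 30 proliferation genes none was called, 29 were above 0 and 8 had CuO_TTM wholly above CuO, against 72.6% and 9.78% of all tested genes (median difference 0.44, or 0.14 without CuO replicate 1). Rrm2, a subunit of the enzyme that makes deoxynucleotides, measured 35.2, 49.2 and 48.3 TPM in CuO_TTM, 11.4, 27.3 and 25.3 TPM in CuO and 9.21, 11.5 and 10.2 TPM in control. Mki67, a gene of cycling cells, measured 9.12, 25.4 and 19.9 TPM in CuO_TTM, against 5.85, 15.98 and 15.7 TPM in CuO (difference 0.51, limma adjusted p = 0.865).

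The saline mice give the level without particles. Against control, CuO had 0 called genes of 15487 (0%) and CuO_TTM had 294 (1.9%). CuO libraries enter both the comparison with CuO_TTM and that with control, so the values of the members are given side by side. Cd8b1 had a difference of 3.92 for CuO_TTM against CuO and of -1.08 for CuO against control (limma adjusted p = 0.0156 and 0.565). Nkg7 had 3.22 and -1.33 (limma adjusted p = 0.0156 and 0.398). Igkc had 2.55 and 0.81 (limma adjusted p = 0.0156 and 0.565), and Marco 3.63 and -1.59 (limma adjusted p = 0.0425 and 0.581).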

How the data were processed

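Per the labels' protocols, poly(A) RNA from the lungs of 9 mice was made into stranded libraries and read on a NovaSeq X Plus. The authors deposited 1 table of TPM for 57010 gene identifiers and 9 libraries, all of which map to a labelled sample. The submitters' processing notes name DESeq2, RSEM, HISAT2 and fastp and the build GRCm39. Versions and the order of the steps are not stated in the sources used here. TPM sum to the same total in each library, so depth is unknown and a gene that takes a large share lowers all others. No paralogue correction is stated, so copies with near-identical sequence, such as antibody and receptor segments, are uncertain.

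limma 3.58.1 in R 4.3.3 was fitted to log2(TPM + 1), with a pseudocount of 1 TPM, a mean for each of the 3 groups over all 9 libraries, and moderation with a trend on abundance. The filter asked for 1 TPM in 3 or more libraries and passed 15487 genes. Tests were two-sided, adjusted by Benjamini and Hochberg at 0.05 over all tested genes, and 95% intervals are limma's. The procedure was tested on simulated data. Gene symbols of the reference annotation matched 52029 identifiers. It is of another build, so no coordinates are given other than those of RefSeq promoters. Ratios and shares were computed within a library.

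The gene lists, the members and the alternatives were chosen with earlier results of these data known. Genes were named by a rule. It took the 20 higher and up to 10 lower called genes of largest difference outside predicted genes and segments, with a mean of at least 1 TPM and groups that do not overlap. It added the 4 members of smallest p in each list, a chosen set of genes and every constant gene. Other named members of lists, segments and genes in no list were chosen after their values were seen. Some genes are not reported here. Alternatives were 3 other scalings, no filter, a stricter filter (mean of 5 TPM or more), a pseudocount of 0.1, robust moderation, no trend, the 6 libraries alone, the replicate number as a block, each library left out, and CuO_TTM replicates 2 and 3 left out together.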

Additional observations from a re-analysis of the deposited data

How the results depend on the processing

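The lead counts depended on the libraries in the fit and on low values. With quantile normalization, median-ratio scaling or rescaling without Scgb1a1, limma called 97, 90 and 93 genes (5, 3 and 2 of them lower), and 111 and 105 without the trend and with robust moderation. A pseudocount of 0.1 gave 41 called, all higher. No filter gave 30, of which 27 were higher. A mean of at least 5 TPM gave 67, 66 higher and 1 lower. The CuO_TTM and CuO libraries alone gave 0 in either direction. Without CuO_TTM replicates 2 and 3 together 1 gene was called, higher, and 0 lower. With 1 library left out, the counts ran from 1 to 148 called, 1 to 133 higher and 0 to 65 lower. The cause was not tested. All 110 genes kept their direction in every one of these fits, except that 80 of them were tested at a mean of at least 5 TPM. Only the 3 other scalings could have changed it. In the other fits it was fixed in advance, because the CuO_TTM and CuO libraries of these genes did not overlap.

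The replicate numbers did not pair the libraries. Same-numbered CuO_TTM and CuO libraries deviated from their group means with correlations of 0.047, -0.128 and 0.286 across 15487 genes, and only replicate 3 of CuO_TTM correlated best with its own number. With the replicate number as a block, limma called 81 genes, 80 higher and 1 lower.

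Some uncalled genes changed sign. Ccs stood at -0.18 after quantile normalization, -0.17 after median-ratio scaling and -0.053 after rescaling without Scgb1a1, and Sftpc at 0.84 after quantile normalization. Without CuO_TTM replicates 2 and 3 together, Isg15 stood at 1.02, Hbb-bt at 0.30, Mki67 at -0.30, Tcrg-C1 at 0.084, Mt1 at 0.13 and Pigr at 0.11. With 1 library left out, the differences ran from -0.52 to 1.27 for Atp7a, -0.79 to 2.29 for Car3, -0.046 to 0.15 for Ccs, -1.01 to 2.81 for Cfd and -0.27 to 0.13 for Col1a1. They ran from -0.093 to 0.89 for Foxp3, -0.87 to 0.25 for Hbb-bt, -0.49 to 0.14 for Mt1, -0.34 to 0.93 for Mt2, -0.20 to 2.29 for Nppa, -0.82 to 0.10 for Sftpc and -0.50 to 0.55 for Trem2. The cause was not tested. Depth is unknown, so no limit from counting could be given. The labels name no batch, and p-values measure only the spread between these mice.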

Other observations

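Genes of glycolysis, which activated lymphocytes and macrophages run at a high rate, lay above 0 in 15 of 15 cases without a call, as did 72.6% of all tested genes (median difference 0.57, and 0.23 without CuO replicate 1). In 2 of the 15 CuO_TTM lay wholly above CuO, against 9.78% of all tested genes. Eno1, the enolase gene, measured 313, 210 and 211 TPM in CuO_TTM, against 74.96, 237 and 156 TPM in CuO, so that CuO replicate 2 lay above CuO_TTM replicates 2 and 3. Of 6 tested mesothelium genes none was called, all lay above 0 and 3 had CuO_TTM wholly above CuO (median difference 0.85). Of all tested genes 72.6% lay above 0 and 9.78% lay wholly above. Upk3b, a gene of the lung's outer lining, measured 12.95, 5.15 and 5.12 TPM in CuO_TTM, against 0.41, 0.55 and 3.69 TPM in CuO, with 5 to 7.13 TPM in control. All 7 tested red cell genes lay below 0 without a call, as did 27.4% of all tested genes (median difference -0.30). Hbb-bt, a beta globin gene with a near-identical copy, measured 363, 267 and 141 TPM in CuO_TTM, against 302, 134 and 637 TPM in CuO.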
